A study of Homo sapiens with 3 samples.

Results

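The peaks described here are the regions of chromosome 4 at which the immunoprecipitate of colorectal cancer cells expressing DKK-1 held more sequence tags than a control. They were chosen by their position and by having been called at all, that is, every chromosome 4 peak called by MACS against at least 1 of 2 controls was taken, and a region with the same start and end in both lists was counted once. This gave 395 peaks of the 8723 in the whole series. The calls against each control therefore chose the members, and the counts, tags and fold enrichments below are a description with no test.

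The ChIP-seq data were 3 libraries of DLD-1, an established line of human colorectal adenocarcinoma cells. DLD-1/DKK-1 cells carry a lentiviral Tet-On construct from which V5-tagged DKK-1 is expressed upon addition of doxycyclin, DLD-1/Mock cells (Mock in what follows) are the transduced control, and the input is a pool of DNA that was not immunoprecipitated. Each condition had 1 library and no replicate, which leaves no measure of the variation between samples. The sample records name an antibody against the V5 tag for both immunoprecipitates whereas the Methods name a DKK-1 antibody, and which of them was used is not settled here.

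DKK-1 is a secreted antagonist of Wnt signaling that binds the LRP co-receptors at the cell surface, and the study asked whether the protein that it found in the nucleus lies at particular genes. In ChIP-seq, DNA that is pulled down with a protein is sequenced, and a peak is a place where aligned reads, or tags, pile up above what a control library predicts. An immunoprecipitate from control cells captures DNA that sticks to antibody and beads, whereas input DNA captures how readily each region is sheared, amplified and aligned, so the controls can differ in which regions they hold in excess.

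After removal of tags beyond 2 per position, the DLD-1/DKK-1 library kept 21312041 tags, Mock 24151009 and input 27723787. A fragment of 150 bp held 1.18 tags by the genome-wide background, so that most peaks rest on few tags, and the 95% Poisson intervals given below cover counting error only. The lists give the DLD-1/DKK-1 tags in each peak but not the tags of the controls. Their fold enrichment is the ratio of DLD-1/DKK-1 tags at the summit to the larger of the genome-wide background and the background of the control around the peak.

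Only one of the genes that the list of specific sites gives on chromosome 4, MIR548M, is a microRNA, and its mature sequence is shown because that listing is in doubt. The list places the gene on chromosome 4 in hg18, whereas RefSeq places it on chromosome X in GRCh38.p14. The sequence is that of RefSeq, 21 nucleotides long, with the seed (bases 2 to 8) in capitals. No other of the 2370 mature human microRNAs in that table, which include 55 of the miR-548 family, had the same seed.
hsa-miR-548m: cAAAGGUAuuugugguuuuug

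Chromosome 4 had more peaks against input than against Mock. MACS called 221 peaks against Mock and 342 against input, a ratio of 1.55. Of the 395 peaks, 168 (42.5%) were in both lists, 174 (44.1%) were called against input only and 53 (13.4%) against Mock only. Over the whole series these shares were 36.6%, 24.0% and 39.5%. Peaks against input only were 86 of 175 on chromosome 18. They were 128 of 367, 83 of 318 and 101 of 308 on chromosomes 3, 5 and 6. Shared peaks were defined by the same start and end in both lists, and counting any overlap of at least 1 bp also gave 168.

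The ratio of input peaks to Mock peaks was below 1 over all other chromosomes together, at 0.771 (4939 against 6410 peaks). Among chromosomes 1 to 22 and X, chromosome 4 had the second highest ratio, after chromosome 18 with 1.62 (144 against 89 peaks). The other 22 chromosomes had a median ratio of 0.882 and ranged from 0.222 to 1.62. Chromosomes 3, 5 and 6, the closest to chromosome 4 in size outside the peak-rich chromosomes 7 to 10, had ratios of 1.10, 0.796 and 1.11. Leaving out chromosomes 7 to 10 as well brought the remaining chromosomes to 0.937. No test of these differences was made, because the lists share the DLD-1/DKK-1 library and peaks are not replicates.

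**Figure D1:**
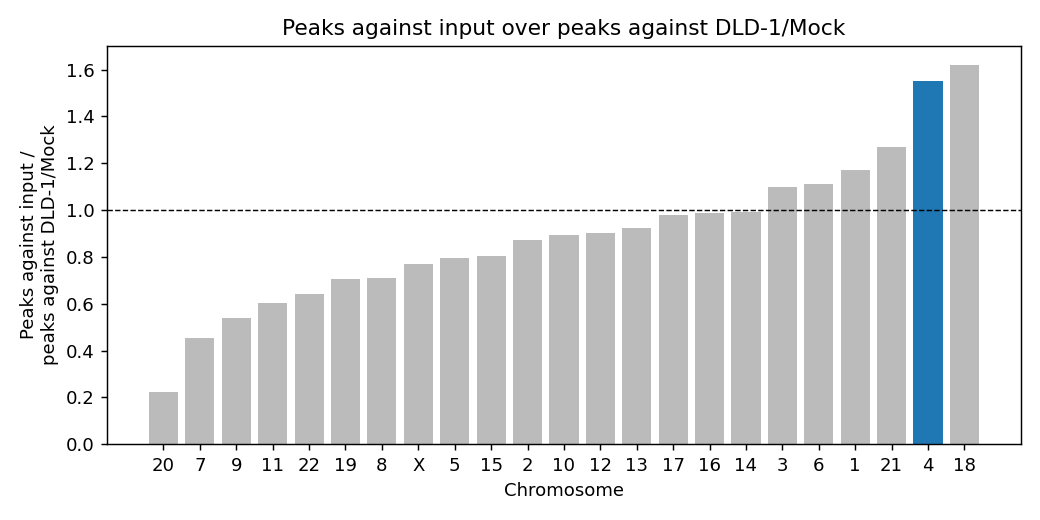
Number of peaks against input divided by number of peaks against Mock (y axis, no unit) for chromosomes 1 to 22 and X, sorted by that ratio, with chromosome 4 in blue and a dashed line at 1. Chromosome 4, at 1.55, stands second to chromosome 18, at 1.62, and the other 22 chromosomes have a median of 0.882.

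The place of chromosome 4 differed between the 2 lists. It held 3.33% of the peaks against Mock and 6.48% of those against input, while the 189 Mb from its first to its last peak is 7.0% of the effective genome size. Its density was 1.17 peaks per Mb against Mock, which was rank 19 of 23 chromosomes, and 1.81 per Mb against input, rank 7. The other chromosomes had median densities of 1.25 and 1.17 peaks per Mb. For chromosomes 3, 5 and 6 the densities were 1.2, 1.30 and 1.22 against Mock and 1.33, 1.04 and 1.35 against input.

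Most chromosome 4 peaks against Mock were also called against input. This held for 168 of 221 (76.0%), the highest share of the 23 chromosomes, compared with 48.1% in the whole series. In the opposite direction, 168 of the 342 peaks against input (49.1%) were also called against Mock, rank 19 of 23, compared with 60.4% in the whole series. Peaks found against Mock only were therefore few here, and the peaks against input only outnumbered them by a factor of 3.28. This factor was 2.77 on chromosome 18, and 1.24, 0.634 and 1.29 on chromosomes 3, 5 and 6.

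The excess against input was present at each level of tags and fold enrichment examined, in varying size. Among peaks with fewer than 15 tags there were 91 against Mock and 147 against input (ratio 1.62), and among those with 15 to 19 tags 88 and 143 (1.62). At 20 tags or more there were 42 and 52, a ratio of 1.24. For the other chromosomes together the ratios in these 3 classes were 0.774, 0.752 and 0.793, and without chromosomes 7 to 10 as well they were 0.924, 0.92 and 1.0. At a fold enrichment of at least 10, 21 of the 221 peaks against Mock (9.5%, with 9.12% in the whole series) and 41 of the 342 against input (12%, with 9.6% in the whole series) remained, a ratio of 1.95. At a P value threshold of 1e-10, 1 peak remained against Mock (0.452%, with 3.48% in the whole series) and 9 against input (2.63%, with 2.94% in the whole series). The chromosomes other than 4 and 7 to 10 also had more peaks against input at these stricter levels. At a fold enrichment of at least 10 there were 265 of their 2474 peaks against input and 241 of their 2639 against Mock (ratio 1.1). At the P value threshold of 1e-10 there were 61 of the 2474 and 34 of the 2639 (ratio 1.79).

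At the 168 shared peaks, the fold enrichment against input was higher than that against Mock at 76 (45.2%, with 32.4% in the whole series), equal at 51 (30.4%, with 23.3%) and lower at 41 (24.4%, with 44.3%). The median ratio of the fold enrichments was 1.0, with a 10th percentile of 0.918 and a 90th percentile of 1.19. At the 3021 shared peaks of the other chromosomes the median was also 1.0, with percentiles of 0.786 and 1.15. The extremes on chromosome 4 were 0.684 and 1.72.

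**Figure D2:**
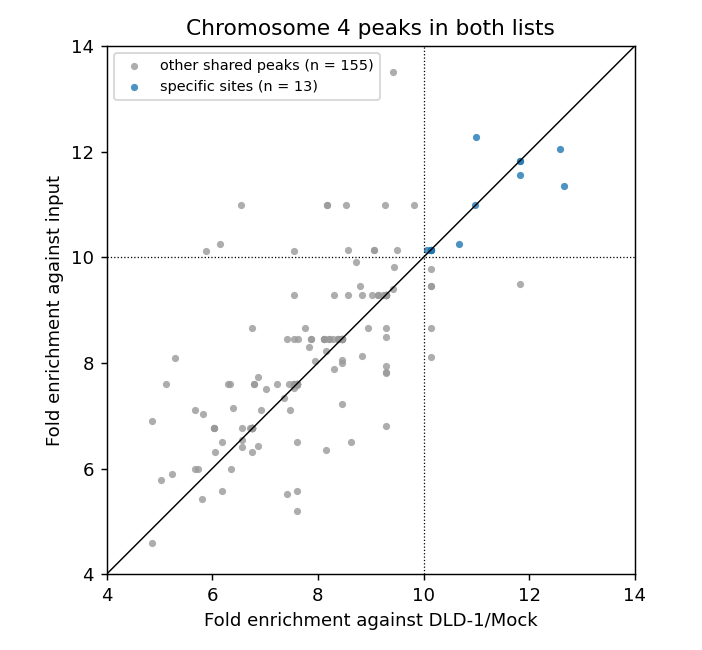
Fold enrichment against Mock (x axis) and against input (y axis) for the 168 chromosome 4 peaks in both lists, with a solid line of equality and dotted lines at 10. The 13 specific sites (blue) have at least 10 against both controls, and 76 peaks lie above the line of equality and 41 below it.

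Where neither the control nor its surroundings exceeded the genome-wide background, the fold enrichment is a whole number of tags divided by that background. Peaks were counted where this held to 2 decimals of the fold enrichment, with the background unrounded. On chromosome 4 this was so for 209 of the 342 peaks against input (61.1%, with 39.0% in the whole series), rank 3 of 23 chromosomes. Against Mock it was so for 90 of 221 peaks (40.7%, with 37.0% in the whole series). On chromosomes 3, 5 and 6 the share against input was 52.7%, 46.5% and 41.3%, and on chromosome 18, which had the highest ratio of input peaks to Mock peaks, it was 72.2%. For chromosomes 3, 5, 6 and 18 the shares against Mock were 38.9%, 37.4%, 40.6% and 44.9%. Chromosome X had the highest share against input, 81.3%, and a share of 81.8% against Mock, with a ratio of 0.768 (rank 16 of 23). The part of this measure in the excess was not tested.

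The peaks were spread along the whole chromosome, from position 235810 to 189266933 (hg18). Each of the 38 windows of 5 Mb held at least 2 peaks, with a median of 10. The median window held 5.5 peaks against Mock and 8 against input. In 30 windows there were more peaks against input, in 6 the counts were equal, and in 2 there were fewer, namely 4 against 5 at 30 to 35 Mb and 4 against 6 at 90 to 95 Mb. The window at 15 to 20 Mb had 4 peaks against input and 0 against Mock, and no window lacked peaks altogether.

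The 3 highest windows were 80 to 85 Mb with 42 peaks, 55 to 60 Mb with 20 and 85 to 90 Mb with 17. At 80 to 85 Mb, 22 peaks were against Mock and 39 against input, with 19 in both, and this window alone held 10.6% of the peaks of the chromosome. At 55 to 60 Mb there were 9 and 17, with 6 in both, and none had over 25 tags. The window at 85 to 90 Mb was the most unequal of the 3, with all 17 peaks called against input and 3 of them against Mock, a ratio of 5.67. Its peaks were of ordinary size, with at most 22 tags. Leaving out 80 to 90 Mb, an alternative chosen after seeing the data, left 196 peaks against Mock and 286 against input, a ratio of 1.46.

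**Figure D3:**
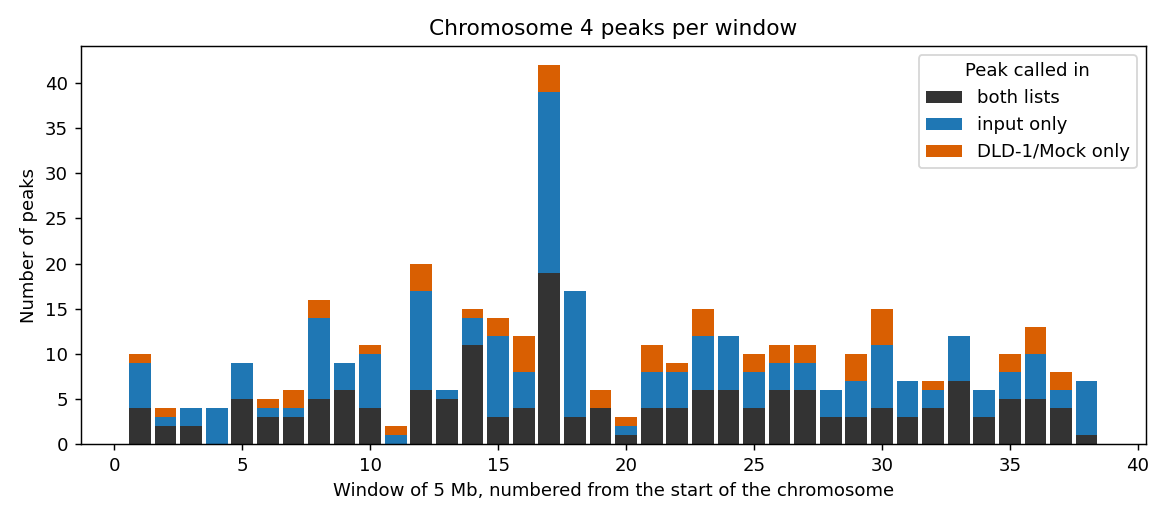
Number of chromosome 4 peaks (y axis) in each of the 38 windows of 5 Mb, numbered from the start of the chromosome (x axis), stacked by whether a peak was called in both lists, against input only or against Mock only. Window 17 (80 to 85 Mb) reaches 42 peaks, whereas the median window holds 10, and in window 18 (85 to 90 Mb) 14 of 17 peaks are against input only.

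Neighbouring peaks lay a median of 293 kb apart, and 25 of the 394 gaps between them were shorter than 10 kb. The longest stretches without a peak in either list were chr4:92632900-97351483 (4.72 Mb), chr4:136571588-140225340 (3.65 Mb) and chr4:49020533-52542155 (3.52 Mb), the last of which spans the centromere. The peak that ends at the centromeric gap, chr4:49019568-49020532, had 68 tags (95% Poisson interval 52.8 to 86.21) and was called against input only, with a fold enrichment of 6.53.

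A typical chromosome 4 peak had few tags and was narrow. The median was 15 tags (interquartile range 13 to 17, range 12 to 136) and the median width was 452 bp (range 219 to 2660). The mean was 17.09 tags with an SD of 10.25 over the 395 peaks, and 483.1 bp with an SD of 173.5. There were 172 peaks (43.5%) with 12 to 14 tags. At least 20 tags were found in 62 peaks (15.7%), compared with 26.4% in the whole series. The series includes the peak-rich chromosomes 7, 8, 9 and 10, whose medians were 17, 17, 17 and 16 tags. Outside these and chromosome 4, 1088 of 2639 peaks against Mock and 1005 of 2474 against input had fewer than 15 tags. On chromosome 4 these were 91 of 221 and 147 of 342. At least 20 tags were found in 500 of 2639 and 502 of 2474 there, and in 42 of 221 and 52 of 342 on chromosome 4. Chromosomes 3, 5 and 6 also had a median of 15 tags, with median widths of 441, 443 and 449.5 bp.

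Tags and width differed little between peaks of different lists. The median was 15 tags in each of the 3 groups, and the median width was 451.5 bp for peaks in both lists, 450.5 bp for input only and 465 bp for Mock only. The tails were less alike, as the most tags were 116, 136 and 29 in these groups. Peaks with at least 20 tags made up 32 of the 168 in both lists (19%), 20 of the 174 against input only (11.5%) and 10 of the 53 against Mock only (18.9%). Wider peaks had more tags (Spearman's rho 0.882 over the 395 peaks, which share a library, and whose width is set by the tags that the caller joins), with a median of 3.34 tags per 100 bp.

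**Figure D4:**
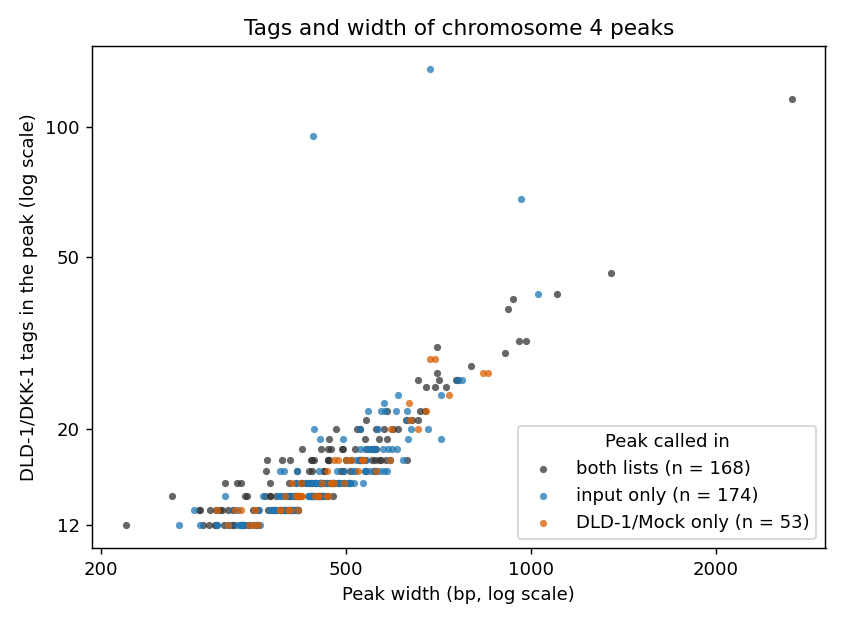
DLD-1/DKK-1 tags (y axis, log scale) and width in bp (x axis, log scale) of the 395 chromosome 4 peaks, coloured by the list in which a peak was called. Most peaks fall on one band, while 3 peaks against input only, with 136, 95 and 68 tags, lie above it, and the widest peak, with 116 tags, ends the band at 2660 bp.

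The empirical FDR, obtained by MACS from the calls after exchanging ChIP and control, was high for all of these peaks. It was between 33.77% and 100% against Mock (median 47.01%) and between 65.44% and 100% against input (median 73.12%). The FDR of peaks on the other chromosomes is not given here, so these values cannot be read as particular to chromosome 4.

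The tag-rich site at chr4:81444121-81446780 had 116 tags (95% Poisson interval 95.85 to 139.1) over 2660 bp and was the widest peak of the chromosome. It was called against both controls, with a fold enrichment of 12.65 against Mock and 11.34 against input. Its score (the negative log10 of P, multiplied by 10) was 396.68 and 354.32, and it was the sole chromosome 4 peak to reach a P value of 1e-10 against Mock. The FDR was 100% against each control. With 4.36 tags per 100 bp it was rank 17 on the chromosome in tag density, so its tags were spread over its width, and its summit lay near its left end, at base 430. In the whole series 38 of the 8723 peaks had more tags.

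No gene is given for this site in the list of specific sites. The start of the C4orf22 transcript given in that list for another site is 29.1 kb to its right. In the order of genes in the RefSeq annotation of GRCh38.p14, where C4orf22 is named CFAP299, the protein-coding gene before it is FGF5, which encodes a fibroblast growth factor, and before that comes PRDM8, which encodes a protein of the PR domain family of transcriptional regulators. Positions from that assembly were not used.

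The tag-rich site was one of a run of peaks. The densest 400 kb of the chromosome held 22 peaks, from 81147528 to 81458643, so that 5.57% of the peaks lay in 0.165% of the distance spanned. Of these, 12 were in both lists, 10 were against input only and 0 against Mock only. The site was the third from the right end of the run, and 19 of the 22 peaks lay to its left, as far as 298 kb away. The 2 peaks to its right were 7.13 and 13.0 kb away and had 20 and 13 tags. The right end of the run was 17255 bp from the start of the C4orf22 transcript.

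The peaks of the run had more tags and were wider than those elsewhere on the chromosome. The median was 22 tags (range 13 to 116) and 602 bp, against 15 tags and 445 bp for the other 373 peaks. At least 20 tags were found in 14 of the 22 peaks (63.6%) and in 48 of the other 373 (12.9%). The tags per 100 bp, summed over all bases covered, were 3.67 in the run and 3.52 outside it. These peaks were found by their closeness after earlier results were known, and the comparison is a description.

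Apart from the tag-rich site, the run held peaks with 46 tags (chr4:81169105-81170454), 41 tags (chr4:81210129-81211156, input only), 40 tags (chr4:81359351-81360284), 38 tags (chr4:81211661-81212578) and 32 tags (chr4:81264939-81265920). The 40-tag peak differed most between controls, with a fold enrichment of 5.88 against Mock and 10.12 against input. The 38-tag peak had 5.29 and 8.09, and the 32-tag peak went the other way with 7.42 and 5.51. All 22 peaks of the run were called against input and 12 of them against Mock, a ratio of 1.83. At those 12 shared peaks, 6 had the higher fold enrichment against input and 6 against Mock. Of the 9 chromosome 4 peaks whose P value against input was 1e-10 or less, 5 were in this run.

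**Figure D5:**
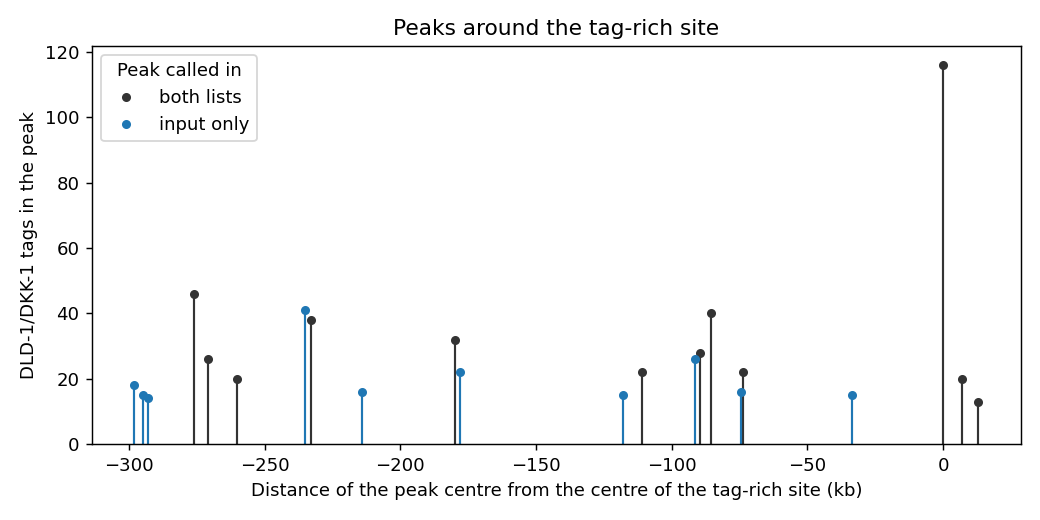
DLD-1/DKK-1 tags (y axis) of the 22 peaks in the densest 400 kb of chromosome 4, placed by the distance in kb of the peak's centre from the centre of the 116-tag site (x axis), with peaks in both lists in black and peaks against input only in blue. Peaks lie as far as 298 kb to the left and 13.0 kb to the right of the site, and none besides it has over 46 tags.

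The densest 400 kb of the other chromosomes held a median of 7 peaks, and chromosome 4 was rank 6 of 23, behind chromosomes 8 (39 peaks), 12 (38), 7 (27), 9 (27) and 10 (25) and ahead of chromosome 1 (13). Leaving out the run, an alternative also chosen after seeing the data, left a ratio of input to Mock peaks of 1.53.

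Of the 4 chromosome 4 peaks with the most tags, the 3 besides this site were called against input only. The highest was chr4:70330944-70331628, with 136 tags (95% Poisson interval 114.1 to 160.9) in 685 bp. Its fold enrichment against input was 15.75, also the highest among peaks called against input only, and its score was 408.01 with an FDR of 100%. The peak chr4:77026090-77026531 had 95 tags (76.86 to 116.1) in 442 bp, with a fold enrichment of 8.62. These 2 peaks had 19.9 and 21.5 tags per 100 bp, and the 68-tag peak beside the centromere followed with 7.05, while the median of the chromosome was 3.34. High tag density in a narrow region thus occurred here without a call against Mock, and the tags of Mock in these regions are not given in the lists.

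Outside the run, the remaining tag-rich peaks were chr4:152273677-152274778 with 41 tags and chr4:37702354-37703308 with 32 tags, both called against both controls. Their fold enrichments were modest, 5.83 and 4.86 against Mock and 7.04 and 4.59 against input. Altogether 6 of the 11 peaks with the most tags (11 because of a tie at 32 tags) lay in the run.

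The list of specific sites is made of shared peaks whose fold enrichment reached 10 against Mock as well as input, and 13 of its 200 sites were on chromosome 4. They were 7.74% of the shared peaks of the chromosome, compared with 6.27% in the whole series. Apart from the 116-tag site, their tags ranged from 13 to 20 and their widths from 261 to 629 bp, with a median over all 13 of 15 tags and 453 bp. The fold enrichment was 10.07 to 12.65 against Mock and 10.14 to 12.27 against input. It was equal against both controls at 7 sites, higher against Mock at 4 and higher against input at 2. A fold enrichment of 10.14 against both was found at 4 sites and is the value of 12 summit tags divided by the genome-wide background. Just inside the threshold was chr4:180353231-180353683 with 10.07 and 10.14, and just outside were chr4:73119968-73120434 with 9.82 and 10.98 and chr4:122976704-122977079 with 10.14 and 9.78. All 3 rest on 15 to 18 tags.

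A gene is listed for 5 of the 13 sites (38.5%, Wilson 95% interval 17.71 to 64.48), and for 78 of the 187 specific sites on other chromosomes (41.7%). The 13 sites are all those of the chromosome and not replicates, so the interval only describes the list. All 5 sites lay in introns, none in an exon, and none was closer than 53.1 kb to the start of the listed transcript. In what follows, distances are measured on the transcript that the list gives (hg18).

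Among genes with a role in nerve cells, CRMP1 encodes a collapsin response mediator protein, a cytoplasmic protein of semaphorin signaling and axon guidance. Its site, chr4:5887854-5888424, had 17 tags (95% Poisson interval 9.903 to 27.22) and a fold enrichment of 11.82 against Mock and 11.55 against input. It lay in intron 11 of a transcript of 14 exons on the minus strand, 53.1 kb from the start and 119 bp from the nearest exon. In addition, no other peak of either list was within the 67.8 kb of the transcript.

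CDS1 encodes a CDP-diacylglycerol synthase, which makes the precursor of phosphatidylinositol from phosphatidic acid. The site chr4:85778125-85778678 had 18 tags (10.67 to 28.45), with fold enrichments of 10.68 and 10.25. It was in intron 8 of 13 exons on the plus strand, 55.3 kb from the start and 423 bp from the nearest exon. It was the only peak in the transcript of 68.4 kb, and one of the 3 peaks of the window at 85 to 90 Mb that were also called against Mock.

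C4orf22, now named CFAP299, is named as a cilia and flagella associated protein. Its site, chr4:81847099-81847511, had 14 tags (7.654 to 23.49) and a fold enrichment of 10.14 against each control. It was in intron 3 of 6 exons, 371 kb from the start and 123739 bp from the nearest exon of a transcript of 628 kb. This transcript held 5 peaks, 3 in both lists and 1 in each list alone, with 13 to 18 tags.

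FAM190A, now named CCSER1, encodes a coiled-coil serine-rich protein and was the longest of the listed transcripts, with 1474686 bp. Its site, chr4:92564575-92565030, had 15 tags (8.395 to 24.74) and a fold enrichment of 10.14 against each control. It lay in intron 10 of 11 exons, 1297095 bp from the start and 173716 bp from any listed exon. The transcript held 2 further peaks, both against Mock only. The longest stretch without peaks on the chromosome began within this transcript, 109 kb before its end.

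MIR548M is listed for the last of the 5 sites and encodes the microRNA whose sequence is given above, and microRNAs silence messenger RNAs that pair with their seed. Its site, chr4:42125791-42126195, had 17 tags (9.903 to 27.22) and the second highest fold enrichment among the specific sites of the chromosome against both controls, 12.59 against Mock and 12.04 against input. The list places it in the intron of a transcript of 141 kb on the minus strand, whose 2 exons are 16 and 34 bp long, 50 bp in all, whereas the hairpin in RefSeq is 86 bp long and unspliced. In the RefSeq annotation of GRCh38.p14 the gene MIR548M is on chromosome X. Whether any part of this gene lies on chromosome 4 is therefore doubtful, and the distance of 8867 bp from the site to the nearest exon holds only for the listing. Without it, 4 of the 13 sites have a listed gene.

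Of the 8 specific sites without a listed gene, the tag-rich site was the only one with over 20 tags. The site chr4:118616822-118617082 was the narrowest of the 13, with 14 tags in 261 bp, a fold enrichment of 11.82 against each control and the second highest score, 91.54. The site chr4:129368401-129368922 had 20 tags and fold enrichments of 11 and 12.27. The sites chr4:181117218-181117846 (17 tags, 11.82 against each control) and chr4:132192023-132192311 (13 tags, 10.98 against each control) had the same value against both. The remaining 3 sites, chr4:66479670-66480093, chr4:109951013-109951365 and the one just inside the threshold, had 13 to 15 tags and fold enrichments of 10.07 to 10.14.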

How the data were processed

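The immunoprecipitates of Mock and DLD-1/DKK-1 cells and the pooled input, 1 library each, were grouped by the sample records. Reads of 40 bp had been mapped by the authors with ELANDv2 (CASAVA 1.7) on hg18, which is NCBI build 36.1. They kept unique alignments and called peaks with MACS 1.4.0beta (P value cut-off 1e-05, regional backgrounds of 1000 and 10000 bp, effective genome size 2700000000 bp) against each control. The authors deposited the tags in each peak as a count without normalization. The fold enrichment (a ratio), the FDR (a percent) and the score (10 times the −log10 of P) are as MACS wrote them and were deposited by the authors unchanged.

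Peaks were read, intersected and counted with scipy 1.17.1, numpy 2.4.6 and pandas 2.3.3 under Python 3.11.15, and drawn using matplotlib 3.10.9. Windows were assigned by the midpoint of a peak, and densities used the distance from the first to the last peak. Tag counts have exact Poisson intervals and shares Wilson intervals, for counting error only. The counting functions were tested on simulated peaks. With 1 library per condition no test was made. The authors' list gave the specific sites, their genes and exons. The RefSeq table of GRCh38.p14, in which all 5 gene names were found, was used only for names, the order of genes and the microRNA sequence. Peak sequences were not read, since no hg18 genome was used here.

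The features described were every gene and specific site on chromosome 4, the 10 peaks with the most tags (with ties), the 3 highest windows and any empty one, and chromosomes 3, 5 and 6 for comparison. Members and lists were chosen with earlier results of these data known. The alternatives were stricter P values, fold enrichments and tag counts, merging of peaks within 1000 bp, other overlap rules, shifted windows, means, other thresholds for specific sites, and leaving out parts of the chromosome.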

Additional observations from a re-analysis of the deposited data

How the results depend on the processing

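No paired analysis was possible because no group had a replicate, and no test was made that could lose or gain significance. Of the values recomputed under an alternative, 37 moved by less than their limits and 25 by more, with stricter thresholds removing peaks by construction. The limits were 1.5-fold for counts and 1.31 to 1.83 for the ratio, also where it was divided by that of other chromosomes. They mark only the size of a move and, with 1 library per condition, measure no variation between samples. A divided ratio is a different quantity from the one these limits belong to. With a P value of 1e-10 or less, 1 peak remained against Mock, 9 against input, 1 in both lists and 9 in either, a ratio of 9.0. With a fold enrichment of at least 10 these were 21, 41, 13 and 49, a ratio of 1.95, and with at least 20 tags 42, 52, 32 and 62, a ratio of 1.24. The ratio of 9.0 rests on 1 peak against Mock. For the chromosomes other than 4 and 7 to 10 the ratios at these settings were 1.79, 1.1 and 1.0. The counts that make up these ratios are those that chose the members, so they describe the part and test nothing. Divided by the ratio over all other chromosomes, that of chromosome 4 was 2.01, and divided by that without chromosomes 7 to 10 as well it was 1.65. Merging peaks within 1000 bp gave 387 peaks and a ratio of 1.52. The highest window held 22 peaks when the list against Mock was counted (19 of them also against input), 19 when peaks in both lists were counted, 20 without 80 to 90 Mb and 20 without the densest 400 kb, the last pair chosen after seeing the data. The specific sites numbered 1 when P was 1e-10 or less against Mock and input alike, with 0 having a gene, 39 at a fold enrichment of at least 9, and 6 at 11, of which 2 had a gene. Without MIR548M, also left out after seeing the data, 4 sites had a gene. The number with a gene at a fold enrichment of at least 9 was not run, because the authors' list gives genes for its own sites only. The depth limits single peaks, since a peak with 15 tags has a 95% Poisson interval of 8.395 to 24.74.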
